A study of Mus musculus with 354 samples.

Results

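The 10 genes described here encode the 4 tissue inhibitors of metalloproteinases, *Timp1*, *Timp2*, *Timp3* and *Timp4*, and 6 matrix metalloproteinases, *Mmp2*, *Mmp9*, *Mmp11*, *Mmp13*, *Mmp14* and *Mmp15*. They are 10 of the 55367 genes counted in every cell, and all 10 passed the filter on low counts. The genes were chosen by their measured values in the comparison of genotypes in these same cells, so their differences between genotypes are given as a description, with no test. The counts came from 354 single cells of the cochlea of P3 mouse pups, 177 cells of each genotype, on 3 plates of 59 wells per genotype. All pups carried Fgfr3-iCre together with the reporter allele ROSA-floxed-rtTA/GFP. The CA-ERBB2 pups also carried TetON-CAERBB2, a transgene for a constitutively active form of the receptor ERBB2, which their Control littermates lacked. All pups received tamoxifen (75 mg/kg) at P0 and P1 and doxycycline (100 mg/kg) at P2, and GFP+ cells were sorted singly by fluorescence. Cells from several pups were pooled for each plate, the sex of the pups was not determined, and the *Fgfr3* promoter drives recombination in few cells, mostly near the apex, which may include outer hair cells. The plate was the replicate, and the plates differed in depth of detection, so levels are given by plate. Some counts of cells are pooled over the plates of a genotype.

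Matrix metalloproteinases are zinc enzymes that cut collagens, gelatins and other proteins around the cell, and most are made as inactive precursors. The TIMP proteins bind their active site, and they also act on cells through surface partners, such as CD63 for TIMP1. TIMP2, the membrane protease MMP14 and the MMP2 precursor form a complex at the cell surface in which MMP2 is activated. In the cochlea these enzymes and inhibitors are known for the turnover of the basement membrane and of the matrix around the sensory epithelium.

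Between 1443 and 5178221 reads were counted in a cell. The median number of genes detected per cell was 10198 on CA-ERBB2 plate 1 and 8679 on Control plate 1, whereas it lay between 1742 and 2954 on the other 4 plates. *Erbb2* itself, in CPM (counts scaled to a common library total) by the plate total alone, was at 25.8, 3.56 and 12.05 on the 3 Control plates and at 140, 35.9 and 82.1 on the 3 CA-ERBB2 plates. All other plate levels also use the TMM factors of edgeR, which correct for differences in composition. Markers of supporting cells summed to 100 CPM or more in 154 of 177 CA-ERBB2 cells and in 122 of 177 Control cells. Mesenchyme markers reached the same sum in 120 CA-ERBB2 and 117 Control cells. Cells of both genotypes thus reached both sums, and whether the sorted cells were of 1 type is not settled by them. On the plates a change in the number of cells of a type and a change in RNA per cell cannot be told apart. In each genotype, wells A12 to D12 of the plates had a much higher median number of genes detected than the other wells, though the ranges overlapped. Whether each of these wells held a single cell is uncertain. Cells with totals under 100000 counts numbered 2 among CA-ERBB2 and 33 among Control cells. On Control plates 1, 2 and 3 they numbered 0, 23 and 10. They stay among the 59 cells of a plate over which shares of positive cells are taken.

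*Timp1* and *Mmp9* were the 2 genes of the 10 whose 3 CA-ERBB2 plates all lay above all 3 Control plates. *Timp1*, which inhibits most soluble metalloproteinases, was at 719, 19457 and 22151 CPM on CA-ERBB2 plates 1, 2 and 3, and at 17.6, 171 and 98.9 CPM on the Control plates. *Mmp9*, the inducible gelatinase, was at 404, 4081 and 5831 CPM on the CA-ERBB2 plates and at 21.5, 124 and 127 CPM on the Control plates. Plate 1 was the lowest plate of each genotype for both genes, and plates 2 and 3 lay close to each other. From the fit over all genes, the log2 difference (CA-ERBB2 minus Control) was 7.20 ± 1.39 (SE) for *Timp1* and 5.24 ± 1.07 for *Mmp9*. Of the 21416 genes fitted, 4.2% had every CA-ERBB2 plate above every Control plate and 4.88% had every CA-ERBB2 plate below. Since the genes were chosen on this comparison, nothing is read from these counts.

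**Figure D1:**
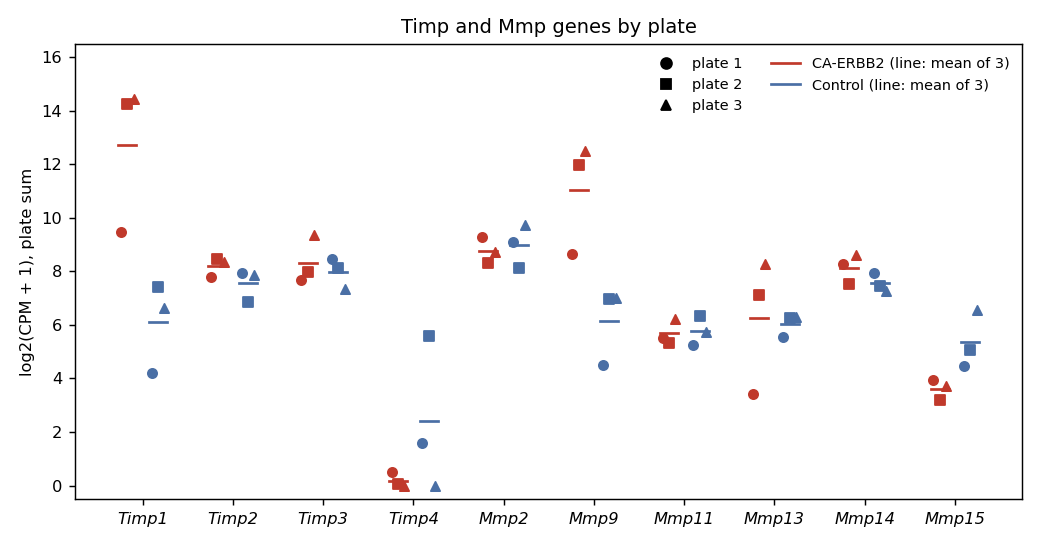
Level of the 10 genes on each plate, as log2(CPM + 1) of the counts summed over 59 cells, with a circle, square and triangle for plates 1, 2 and 3 and a line at the mean of 3 plates. *Timp1* and *Mmp9* stand apart between CA-ERBB2 (red) and Control (blue), *Mmp15* lies lower on all CA-ERBB2 plates, and the plates of the other 7 genes overlap.

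For a further 5 genes the plates of the 2 genotypes overlapped. *Timp2*, the inhibitor that also takes part in MMP2 activation, was at 218, 349 and 329 CPM on the CA-ERBB2 plates and at 244, 115 and 234 CPM on the Control plates. *Mmp14*, the membrane protease of that complex, was at 306, 186 and 391 CPM against 242, 174 and 155 CPM. *Mmp2*, the gelatinase it activates, was at 617, 314 and 418 CPM against 547, 277 and 857 CPM. The log2 differences of these 3 genes were 0.60 ± 0.49 for *Timp2*, 0.63 ± 0.48 for *Mmp14* and -0.32 ± 0.54 for *Mmp2*. *Timp3*, an inhibitor that stays bound to the matrix, was at 202, 251 and 653 CPM on the CA-ERBB2 plates and at 356, 276 and 162 CPM on the Control plates. Its log2 difference of 0.48 ± 0.58 became -0.02 without the TMM factors and -0.21 without CA-ERBB2 plate 3. *Mmp11*, also called stromelysin 3, was at 44.3, 39.2 and 74.6 CPM against 36.9, 79.6 and 52.7 CPM, with a log2 difference of -0.10 ± 0.56.

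The plate levels of *Mmp13* and *Timp4*, and those of *Mmp15* on plate 3 of each genotype, rested on few cells. *Mmp13*, an interstitial collagenase, was at 9.62, 140 and 309 CPM on the CA-ERBB2 plates and at 45.7, 75.0 and 77.7 CPM on the Control plates. The CA-ERBB2 plates lay on either side of the Control plates, with a log2 difference of 1.21 ± 0.90 that fell to 0.20 without CA-ERBB2 plate 3. On each Control plate 1 cell held at least 99.3% of the *Mmp13* counts, and on CA-ERBB2 plate 3 a single cell held 68.9%. *Mmp15*, a membrane protease related to MMP14, was at 14.5, 8.23 and 12.01 CPM on the CA-ERBB2 plates and at 21.1, 32.3 and 94.0 CPM on the Control plates. It was the only gene of the 10 with every CA-ERBB2 plate below every Control plate, and its log2 difference of -2.09 ± 0.73 came to -1.19 without Control plate 3, where 1 cell held 53.5% of its counts. On CA-ERBB2 plate 3, 3 cells held 90.5% of its counts. *Timp4* was at 0.417, 0.0274 and 0 CPM on the CA-ERBB2 plates and at 2.04, 47.1 and 0 CPM on the Control plates. A single Control cell on plate 2 held 99.9% of the *Timp4* counts there, and on plate 3 of either genotype 0 of 59 cells had a *Timp4* count.

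Per length of exon, the leading inhibitor and the leading protease differed between the plates. As CPM per kilobase, *Timp1* made up 90.9%, 99.5% and 99.3% of the sum of the 4 inhibitors on CA-ERBB2 plates 1, 2 and 3, against 15.7%, 73.0% and 58.2% on the Control plates. On Control plate 1, *Timp2* led the inhibitors with 49.5% and *Timp3* followed with 34.6%. Among the 6 proteases, *Mmp2* was the highest on every Control plate, with 66.7%, 39.3% and 66.6% of the sum. *Mmp2* also led on CA-ERBB2 plate 1 with 49.4%, whereas *Mmp9* led on CA-ERBB2 plates 2 and 3 with 85.7% and 83.1%. *Mmp9* took 2.50%, 16.7% and 9.43% on the Control plates. The sum of the inhibitors divided by the sum of the proteases was 2.40, 16.4 and 12.7 on the CA-ERBB2 plates and 0.520, 1.27 and 0.501 on the Control plates. Without *Timp1* and *Mmp9* in the sums the ratio was 0.315, 0.626 and 0.492 against 0.450, 0.411 and 0.231, so the plates of the genotypes overlapped.

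**Figure D2:**
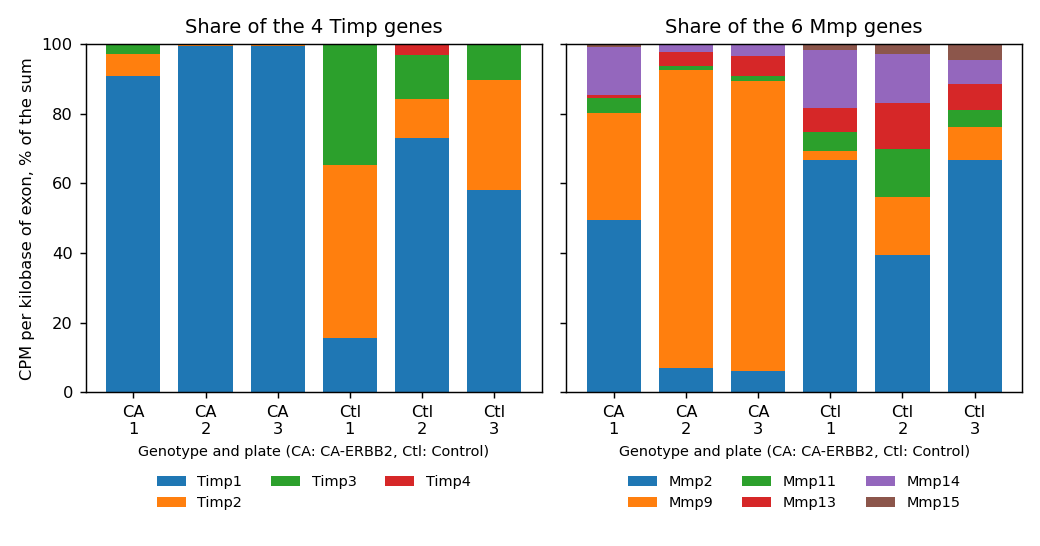
Share of each gene in the sum of the 4 *Timp* genes (left) and of the 6 *Mmp* genes (right) on each plate, in CPM per kilobase of exon. *Timp1* takes 90.9% or more of the inhibitors on the CA-ERBB2 plates, and *Mmp9* takes 83.1% or more of the proteases on CA-ERBB2 plates 2 and 3 but 30.8% on CA-ERBB2 plate 1, where *Mmp2* leads.

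At the level of cells, a cell was counted as positive for a gene at 100 CPM or more. *Timp1* was positive in 8, 23 and 26 of 59 cells on CA-ERBB2 plates 1, 2 and 3, which is 13.6%, 39.0% and 44.1%. On the Control plates 3, 5 and 3 cells were positive, and the exact 95% intervals of these shares, which cover counting error only, reached up to 18.7%. *Mmp9* was positive in 7, 21 and 24 cells on the CA-ERBB2 plates and in 3 cells on each Control plate. The median among *Timp1*-positive cells was 968, 31241 and 23942 CPM on the CA-ERBB2 plates and 141, 471 and 1417 CPM on the Control plates, so it was above all Control plates on CA-ERBB2 plates 2 and 3 but not on plate 1. A level of 10000 CPM of *Timp1* was reached by 44 CA-ERBB2 cells and by 0 Control cells, whose highest value was 6371 CPM. On CA-ERBB2 plate 1, 3 cells held 94.1% of the *Timp1* counts and 1 cell held 69.4% of the *Mmp9* counts, so the low level of that plate also rested on few cells. On Control plates 1, 2 and 3, 1 cell held 18.1%, 75.3% and 41.6% of the *Timp1* counts. For *Mmp9*, 1 cell held 54.1%, 62.5% and 88.9% of the counts of these plates, so most of the Control levels rested on few cells too.

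The shares of positive cells for *Timp2*, *Mmp14* and *Mmp2* were highest on plate 1 of each genotype. *Timp2* was positive in 88.1%, 44.1% and 33.9% of the CA-ERBB2 cells by plate and in 74.6%, 22.0% and 20.3% of the Control cells. *Mmp14* was positive in 86.4%, 23.7% and 28.8% against 71.2%, 23.7% and 20.3%, and *Mmp2* in 62.7%, 20.3% and 22.0% against 67.8%, 23.7% and 32.2%. The number of genes detected was also highest on plate 1. *Mmp13* was positive in 2, 6 and 6 CA-ERBB2 cells and in 1 cell on each Control plate. *Mmp15* was positive in 5 CA-ERBB2 and 12 Control cells in all, *Mmp11* in 19 and 27, with a share on plate 1 no larger than on plate 3, and *Timp4* in 0 and 3. For *Timp4*, 0 of 59 cells on a plate allows a share of up to 6.06% by the exact interval.

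**Figure D3:**
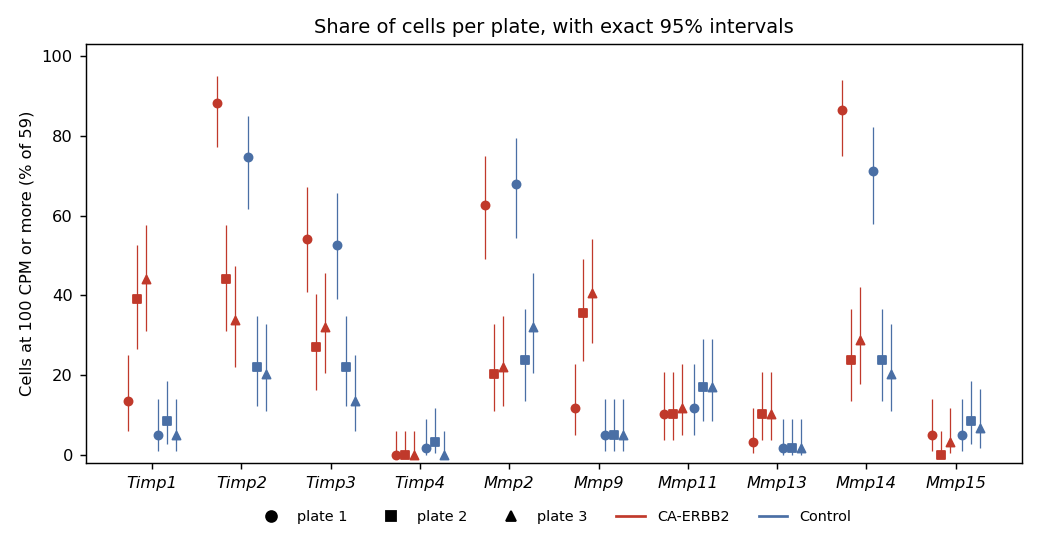
Percentage of the 59 cells of each plate at 100 CPM or more, with exact binomial 95% intervals, for CA-ERBB2 (red) and Control (blue) and with a circle, square and triangle for plates 1, 2 and 3. *Timp1* and *Mmp9* are positive in more cells on CA-ERBB2 plates 2 and 3 than on any Control plate, while *Timp2*, *Mmp2* and *Mmp14* are highest on plate 1 of both genotypes.

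*Timp1* and *Mmp9* were found in the same cells. Cells positive for both numbered 5, 19 and 24 on the CA-ERBB2 plates, which is 8.47%, 32.2% and 40.7% of the cells, and 0, 1 and 1 on the Control plates. In the CA-ERBB2 cells together, 48 were positive for both, 9 for *Timp1* alone and 4 for *Mmp9* alone. The Control cells held 2, 9 and 7 such cells, so in that genotype most positive cells had 1 of the 2 genes. The 48 cells held 97.9%, 70.0% and 93.6% of the *Timp1* counts of CA-ERBB2 plates 1, 2 and 3 and 84.2%, 99.3% and 99.998% of the *Mmp9* counts. When every cell was thinned to 100000 counts, 48 of 175 CA-ERBB2 and 1 of 144 Control cells were positive for both. Within the 48 cells the median of *Timp1* was 2420, 25368 and 23942 CPM by plate and that of *Mmp9* was 885, 5959 and 4462 CPM. Per length of exon, *Timp1* was the higher of the 2 genes in 47 of the 48 cells, and in 0 of the 2 Control cells. The median log2 ratio of *Timp1* to *Mmp9* per length was 2.78, 3.78 and 4.17 on CA-ERBB2 plates 1, 2 and 3, with a range over all these cells from -0.83 to 8.73.

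**Figure D4:**
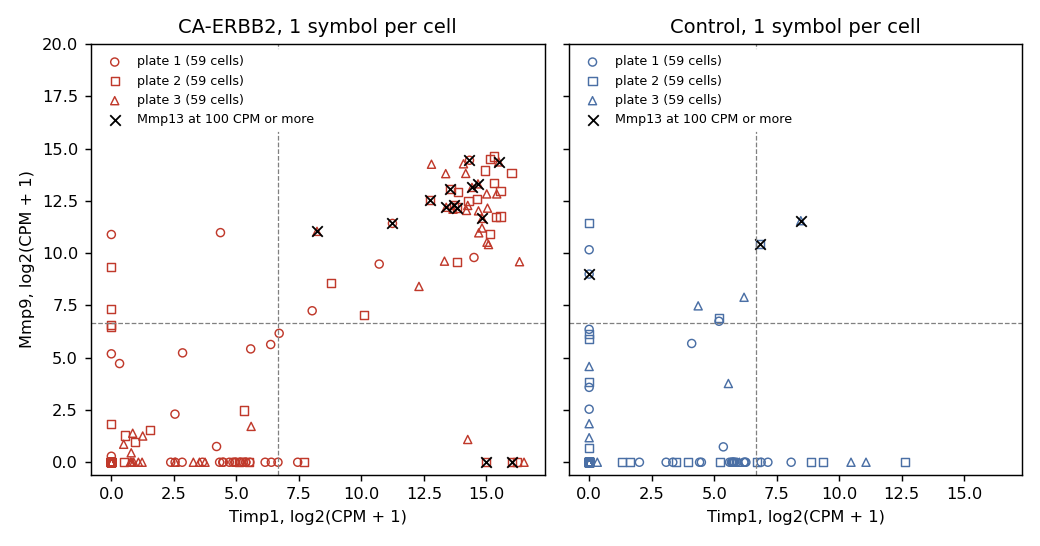
*Timp1* (x) and *Mmp9* (y) of every cell as log2(CPM + 1), with CA-ERBB2 on the left, Control on the right, symbols for plates and dashed lines at 100 CPM. In the upper right field lie 48 CA-ERBB2 cells and 2 Control cells, and all 14 CA-ERBB2 cells with *Mmp13* at 100 CPM or more (crosses) lie right of the vertical line.

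A group of 4 wells on each plate, A12 to D12, differed in the median number of genes detected. It was 15673 genes in the 12 CA-ERBB2 and 15538 genes in the 12 Control cells, against 3269 and 3233 genes in other wells. The ranges overlapped, with 9838 to 19522 and 3520 to 17027 genes in these wells and up to 12992 and 15753 genes in other wells. Of these 12 CA-ERBB2 cells, 10 were positive for both *Timp1* and *Mmp9*, against 38 of the 165 CA-ERBB2 cells in other wells. In Control, 1 of 12 and 1 of 165 cells were. Without these wells the share of CA-ERBB2 cells positive for both was 23.0%, against 27.1% with them, and the log2 difference was 7.18 for *Timp1* and 5.39 for *Mmp9*. Of the 14 *Mmp13*-positive CA-ERBB2 cells described next, 4 were in these wells, and without the wells the log2 difference of *Mmp13* was 1.78, against 1.21 with them. The sources used here do not say how these wells differed, and whether each of them held a single cell is uncertain, so the counts of cells that include them are uncertain to that extent.

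*Mmp13* went with both *Timp1* and *Mmp9* in CA-ERBB2 cells, and with *Mmp9* in the few *Mmp13*-positive Control cells. All 14 *Mmp13*-positive CA-ERBB2 cells were positive for *Timp1*, which is 14 of 57 cells with *Timp1* and 0 of 120 cells without, and this held on each plate (2 of 8, 6 of 23 and 6 of 26 cells). Of the 14 cells, 12 were also positive for *Mmp9*. The other 2 cells were on plate 2, with 66118 and 32255 CPM of *Timp1*, 1024 and 1542 CPM of *Mmp13* and 0 CPM of *Mmp9*. The highest *Mmp13* value among CA-ERBB2 cells, 5221 CPM, stood in a cell on plate 3 with 298 CPM of *Timp1*, the lowest *Timp1* of the 14. The 3 *Mmp13*-positive Control cells, at 3575, 2650 and 2042 CPM, had 0, 112 and 352 CPM of *Timp1*, and all 3 were positive for *Mmp9*. In these Control cells mesenchyme markers summed to 14756, 3437 and 14491 CPM and osteoblast markers to 4166, 1262 and 11542 CPM, whereas in the 14 CA-ERBB2 cells the sums ranged from 693 to 12477 CPM and from 0 to 5881 CPM. Their part in the *Mmp13* values was not tested.

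Beyond *Mmp9* and *Mmp13*, *Mmp14* was positive more often in the *Timp1*-positive CA-ERBB2 cells on each plate. Its shares were 100%, 39.1% and 50.0% among cells with *Timp1* and 84.3%, 13.9% and 12.1% among cells without, a mean difference of 26.3 ± 11.1 percentage points (SD over 3 plates). At full depth Control cells showed the same direction, with 100%, 40.0% and 33.3% among the 3, 5 and 3 cells with *Timp1*. Among cells without, the shares were 69.6%, 22.2% and 19.6%, a mean difference of 20.6 ± 8.69 points. For *Mmp9* in CA-ERBB2 cells the mean difference was 76.0 ± 16.9 points and for *Mmp13* 24.7 ± 1.52 points, or 20.15 points without wells A12 to D12 and 2.194 points when a positive cell needed 1000 CPM. In CA-ERBB2 cells *Timp2* differed by 27.9 ± 24.8 points (20.0 ± 6.56 in Control) and *Timp3* by 27.5 ± 25.5 points, each with 1 plate near 0: -0.74 points for *Timp2* on plate 1 and -1.69 points for *Timp3* on plate 2. *Mmp2*, *Mmp11* and *Mmp15* had mean differences of -5.82 ± 11.5, -7.06 ± 8.78 and -1.69 ± 3.65 points in CA-ERBB2 cells. In Control, with 11 *Timp1*-positive cells in all, these were 13.2 ± 22.9, 21.7 ± 4.04 and 4.45 ± 21.9 points. *Mmp9*, *Mmp13* and *Timp3* had 13.6 ± 17.7, 17.2 ± 17.7 and 11.2 ± 34.2 points in Control. *Timp4* reached 100 CPM in no CA-ERBB2 cell. The *Timp1*-positive CA-ERBB2 cells also had more genes detected, with medians of 11353, 3161 and 2969 genes by plate. The other CA-ERBB2 cells had 10095, 2710 and 1184 genes. After thinning to 100000 counts the mean shares of *Mmp14* in CA-ERBB2 cells were 63.0% with *Timp1* and 33.5% without. In Control cells they were 38.9% and 42.6%. By Control plate they were 50.0%, 33.3% and 33.3% with *Timp1* and 66.7%, 39.4% and 21.7% without. These Control shares rest on few cells with *Timp1*, and thinning also left out the 33 Control cells under 100000 counts. The direction in Control cells at equal depth is therefore not settled.

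**Figure D5:**
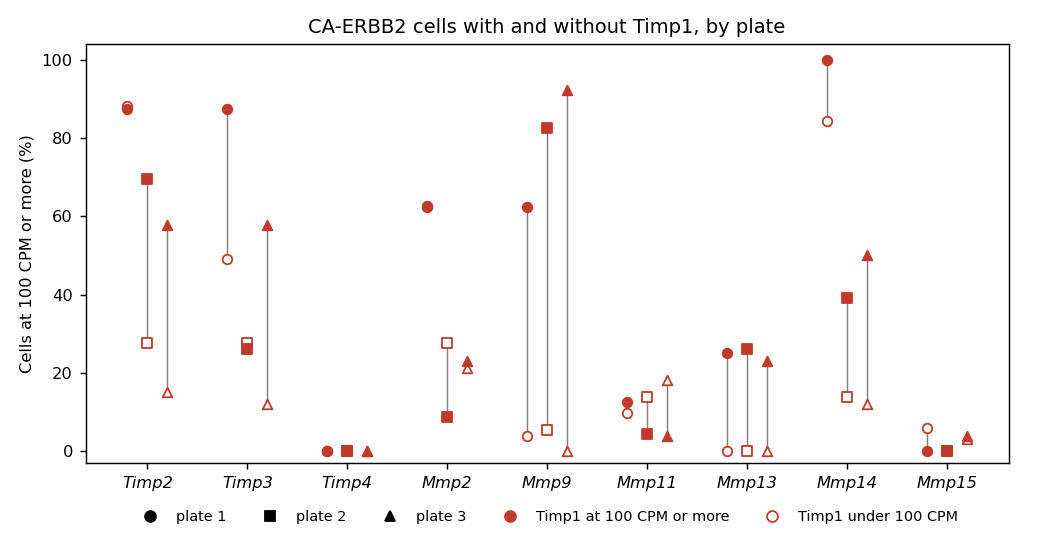
Percentage of CA-ERBB2 cells at 100 CPM or more for 9 genes, among cells with *Timp1* at 100 CPM or more (filled) and under it (open), joined by a line for each plate (circle, square and triangle for plates 1, 2 and 3). *Mmp9*, *Mmp13* and *Mmp14* are higher with *Timp1* on all 3 plates, *Timp2* and *Timp3* on 2 plates, and *Mmp2*, *Mmp11* and *Mmp15* show no common direction.

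Rank correlations across the 59 cells of a plate, which share a sort and a library preparation and vary in depth, are given as a description. Spearman's rho of *Timp1* with *Mmp9* was -0.04, 0.11 and 0.48 on the Control plates, whereas plates 1, 2 and 3 of CA-ERBB2 gave 0.39, 0.68 and 0.78. The mean over the CA-ERBB2 plates was 0.62 with *Mmp9*, 0.40 with *Mmp13*, 0.36 with *Mmp14*, 0.22 with *Timp2*, 0.18 with *Timp3*, 0.03 with *Mmp15*, -0.01 with *Mmp2* and -0.06 with *Mmp11*. On the Control plates the mean with *Mmp14* was 0.33, with *Timp2* 0.30, with *Mmp2* 0.30 and with *Timp3* 0.29. It was 0.24 with *Mmp11*, 0.22 with *Mmp13*, 0.18 with *Mmp9* and 0.10 with *Mmp15*. By Control plate, *Timp1* with *Mmp13* gave -0.09, 0.30 and 0.46. The mean rho of *Mmp9* with *Mmp13* was 0.44 on the CA-ERBB2 plates and 0.43 on the Control plates. Over the 6979 other genes detected in at least 10 cells of each CA-ERBB2 plate, the median rho with *Timp1* was 0.14 and the 95th percentile was 0.31. *Mmp9* ranked 3rd of these 6979 genes and *Mmp14* ranked 152nd, while *Timp2* and *Timp3* ranked 1475th and 2244th and *Mmp2* and *Mmp11* ranked 6468th and 6778th. The 5 genes most like *Timp1* were *Spp1*, which encodes osteopontin (mean rho 0.64), *Lgals1*, which encodes galectin-1 (0.63), *Mmp9* (0.62), the matrix protein gene *Dmp1* (0.61) and *Tmem176a* (0.58). For *Mmp9* they were the type VI collagen gene *Col6a2* (0.63), *Timp1* (0.62), *Lgals1* (0.61), *Col6a1* (0.59) and *Emp3* (0.58), and *Mmp14* ranked 33rd at 0.46.

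*Mmp2*, *Mmp14*, *Timp2* and *Timp3* had a mean rho above 0 with each other in both genotypes. A mean rho above 0 was common, as 91.3% of the 6979 genes had one with *Timp1* on the CA-ERBB2 plates. Their mean rho with the number of genes detected was between 0.14 and 0.45 on the CA-ERBB2 plates. It was between 0.08 and 0.26 on Control plate 1 and between 0.38 and 0.74 on Control plates 2 and 3. What depth contributes to the values below was not tested. The mean rho of *Mmp2* with *Mmp14* was 0.34 on the CA-ERBB2 plates and 0.54 on the Control plates, and that of *Timp2* with *Mmp2* was 0.31 and 0.47. *Timp2* with *Mmp14* had 0.32 and 0.47, though 0.08 on CA-ERBB2 plate 1. *Timp3*, whose level is uncertain, had 0.34 and 0.51 with *Mmp2* and 0.37 and 0.57 with *Mmp14*. Of the cells positive for *Mmp2* and *Mmp14*, 41 of 44 CA-ERBB2 cells and 44 of 52 Control cells were positive for *Timp2*, the third partner of the activation complex. By plate this was 100%, 75.0% and 66.7% of 34, 4 and 6 CA-ERBB2 cells. For Control it was 91.2%, 63.6% and 85.7% of 34, 11 and 7 cells. Each share was above that of all cells with *Timp2* on the same plate. *Mmp2* had the highest mean rho with the summed mesenchyme markers among the 10 genes (0.61 and 0.60), though not the highest on each plate, at 0.80, 0.53 and 0.50 on the CA-ERBB2 plates and 0.59, 0.67 and 0.54 on the Control plates. The mean with these markers was 0.41 and 0.56 for *Timp3* and 0.31 and 0.39 for *Timp2*, with 0.08 for *Timp2* on CA-ERBB2 plate 1. *Timp1* reached 0.10, 0.22 and 0.15 on the CA-ERBB2 plates and 0.30, 0.35 and 0.24 on the Control plates. With the summed osteoblast markers the order on the CA-ERBB2 plates differed. The mean rho there was 0.57 for *Mmp14*, 0.54 for *Mmp9*, 0.50 for *Timp1* and 0.23 for *Mmp2*. On the Control plates it was 0.51, 0.39, 0.32 and 0.44 for these genes, so *Mmp2* lay above *Mmp9* and *Timp1*. *Timp3* had 0.38 on the CA-ERBB2 plates and 0.52 on the Control plates. The osteoblast list holds *Bglap* and *Bglap2*, which reached 100 CPM in 22 and 18 of 177 CA-ERBB2 cells. In Control they did so in 3 and 1 of 177 cells. These 2 genes thus differed between the genotypes themselves, and what they contribute to the values with this list was not tested.

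The cell type markers in the 48 CA-ERBB2 cells positive for *Timp1* and *Mmp9* were compared with those in the other 129 CA-ERBB2 cells. Both sets were pooled over plates. The 48 cells numbered 5, 19 and 24 of the 59 cells on plates 1, 2 and 3. The median number of genes detected on these plates was 10198, 2954 and 1853. The other 129 cells thus lay more on plate 1, so differences between the 2 sets also hold differences between plates. All 15 supporting cell markers had counts among the 48 cells, their sum was between 0 and 16076 CPM, and 46 of the 48 cells reached 100 CPM, against 108 of 129 cells with sums from 0 to 48912 CPM. The list's members went both ways: *Serpine2* reached 100 CPM in 93.8% of the 48 and 55.8% of the 129 cells and *Smagp* in 35.4% and 20.2%, whereas *Sox2*, a regulator of supporting cells, was at 4.17% and 14.7%, *Prox1* at 4.17% and 14.0%, *Hes5* at 4.17% and 14.7% and *Fgfr3* at 14.6% and 24.0%. The 6 osteoblast markers summed to 100 CPM or more in 31 of 48 cells (0 to 5881 CPM) and in 19 of 129 cells (0 to 6338 CPM). The osteocalcin genes *Bglap* and *Bglap2* reached 100 CPM in 19 and 15 of the 48 cells and in 3 and 3 of the 129 cells. The osteoblast regulators *Runx2* and *Sp7* did so in 10 and 9 of the 48 cells and in 13 and 6 of the 129 cells. *Ibsp* reached it in 10.4% and 2.33% of cells, and *Alpl* differed little, at 6.25% and 4.65%. The 9 mesenchyme markers reached 100 CPM in 43 of 48 cells (0 to 12477 CPM) and in 77 of 129 cells (0 to 47759 CPM). Of these, the collagen genes *Col1a1* (56.2% and 12.4% of cells) and *Col1a2* (79.2% and 49.6%) were more frequent in the 48 cells, and *Pdgfra* (10.4% and 23.3%), *Pdgfrb* (4.17% and 14.7%), *Pou3f4* (8.33% and 27.9%) and *Tbx18* (16.7% and 36.4%) were less frequent. The 12 macrophage and osteoclast markers reached it in 11 of 48 cells (0 to 8335 CPM) and in 13 of 129 cells (0 to 13238 CPM). The 9 neutrophil markers reached it in 0 of the 48 cells, with *S100a8*, *Ly6g*, *Elane* and *Ltf* at 0 counts. Epithelial markers reached 100 CPM in 17 of 48 and 53 of 129 cells, hair cell markers in 3 and 9, ridge markers in 42 and 97, and endothelial and pericyte markers in 7 and 18. Members of the epithelial and ridge lists also went both ways. *Cdh1* was at 10.4% and 28.7% of cells and *Epcam* at 29.2% and 24.0%. *Itm2a* was at 62.5% and 31.8%, *Rcn3* at 60.4% and 39.5% and *Dcn* at 31.25% and 40.3%. What these markers contribute to the *Timp1* and *Mmp9* levels was not tested.

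The 4 CA-ERBB2 cells positive for *Mmp9* alone had 2012, 1899, 647 and 161 CPM of *Mmp9* and at most 19.6 CPM of *Timp1*. Their mesenchyme markers summed to between 7836 and 18683 CPM and their osteoblast markers to between 710 and 1293 CPM. Of the 44 CA-ERBB2 cells with *Timp1* at 10000 CPM or more, 5 were under 100 CPM for *Mmp9*, 3 of them on plate 2 and 2 on plate 3. The 3 cells on plate 2 had osteoblast marker sums of 3214, 5365 and 6338 CPM and supporting cell marker sums of 3744, 5669 and 3706 CPM. The 2 cells on plate 3 had 516 and 561 genes detected. The 9 *Mmp9*-positive Control cells were a mixed set, and 4 of them were in wells A12 to D12. In 1 cell on plate 1 neutrophil markers were at 38613 CPM. Macrophage and osteoclast markers were at 3164 CPM or more in 3 cells, and osteoblast markers at 1262 CPM or more in 5 cells. These counts overlap, since the cell with neutrophil markers also had macrophage and osteoclast markers at 3164 CPM. Wells A12 and B12 of plate 2 reached both the macrophage and osteoclast level and the osteoblast level. Well B5 of plate 2 reached none of these levels. *Timp2* was positive in 8 of these 9 cells and *Timp1* in 2. All 52 *Mmp9*-positive CA-ERBB2 cells were positive for at least 1 inhibitor, *Timp1* in 48, *Timp2* in 35 and *Timp3* in 30, while 126 of all 177 CA-ERBB2 cells were.

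Promoter sequences are shown for *Timp1* and *Mmp13*, which went together across CA-ERBB2 cells. *Mmp14* is also shown, which was more often positive with *Timp1* on each CA-ERBB2 plate. They were read from the RefSeq table of windows on GRCm38.p6, in which 8 of the 10 genes matched and *Mmp2* and *Mmp9* did not. Each line gives the 150 bases before the RefSeq start, 5′ to 3′ on the strand of the gene, with capitals at matches to TGANTCA (the letters bound by AP-1), AGGAAG (which holds the core of ETS sites), GGGCGG (the GC box) or TATAAA on either strand. The stretches are chrX:20870016-20870165 (+) for *Timp1*, chr9:7272364-7272513 (+) for *Mmp13* and chr14:54431448-54431597 (+) for *Mmp14*. The RefSeq start is that of the Gencode M21 gene for *Timp1*, *Timp4* and *Mmp13*, and 14 bases before it for *Mmp14*. It lies 329, 40, 3994 and 28 bases inside the Gencode gene for *Timp2*, *Timp3*, *Mmp11* and *Mmp15*, so for these 4 genes the windows depend on the annotation.
Timp1: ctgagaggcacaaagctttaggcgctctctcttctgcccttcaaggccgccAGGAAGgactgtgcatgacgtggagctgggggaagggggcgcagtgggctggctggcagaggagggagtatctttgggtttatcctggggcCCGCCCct
Mmp13: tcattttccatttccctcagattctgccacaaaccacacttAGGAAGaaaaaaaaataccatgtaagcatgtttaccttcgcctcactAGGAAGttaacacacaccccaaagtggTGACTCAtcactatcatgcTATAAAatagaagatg
Mmp14: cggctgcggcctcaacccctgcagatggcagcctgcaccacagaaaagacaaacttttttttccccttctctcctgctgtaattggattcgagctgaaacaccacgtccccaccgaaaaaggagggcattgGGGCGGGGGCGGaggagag

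Within 250 bases before the RefSeq start, TGANTCA was found in 1 of the 8 genes, *Mmp13*, 35 bases upstream, and in 6.75% of all 32851 windows. AGGAAG was found in 5 of the 8 genes and in 29.5% of windows. *Timp1* had it 175 and 99 bases upstream and *Mmp13* 109 and 62 bases upstream, and *Timp3*, *Timp4* and *Mmp14* had 1 match each. GGGCGG was found in 6 of the 8 genes, *Timp1* and *Timp2* among them, and in 32.7% of windows, and TATAAA in *Mmp13* alone and in 12.4% of windows. These matches are letters in a window and not measured sites.

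In the Gencode M21 annotation of GRCm38, 3 of the inhibitor genes lie inside synapsin genes on the opposite strand. *Timp1* (chrX:20870166-20874735, +) lies in *Syn1*, *Timp3* (chr10:86300372-86349506, +) in *Syn3* and *Timp4* (chr6:115241892-115252205, -) in *Syn2*. *Timp1* and *Syn1* share 0 exonic bases, *Timp4* and *Syn2* share 90 and *Timp3* and *Syn3* share 1733. *Syn1* was at 1.57, 54.2 and 14.0 CPM on the CA-ERBB2 plates and at 7.82, 18.5 and 1.33 CPM on the Control plates, with a log2 difference of 1.33 ± 1.23 (edgeR adjusted p = 0.936), and its rho with *Timp1* across cells was between 0.01 and 0.36. *Syn3*, in contrast, was at 140, 176 and 529 CPM against 260, 202 and 102 CPM, and its rho with *Timp3* was between 0.85 and 0.95 on all 6 plates. The *Syn3* counts were between 0.63 and 0.81 times the *Timp3* counts on every plate, and 167 of the 178 cells with *Syn3* also had *Timp3*. Counting was by strand, but the sources used here do not state whether the libraries mark strand, so reads on the shared bases of *Timp3* and *Syn3* cannot be told apart and the level of *Timp3* is uncertain. *Mmp11* (chr10:75923222-75936496, -) shares 155 exonic bases with *Chchd10* on the opposite strand, and *Mmp9* (chr2:164940780-164955850, +), *Mmp2* (chr8:92827291-92853420, +), *Mmp13* (chr9:7272514-7283331, +), *Mmp14* (chr14:54431612-54445364, +) and *Mmp15* (chr8:95352268-95375080, +) overlap no other gene.

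The other genes of matrix turnover were described in 5 lists with 79 genes, of which 70 were tested. The edgeR quasi-likelihood test with Benjamini-Hochberg adjustment called 0 of the 70, where it called 0.00467% of all genes tested. At an unadjusted p under 0.05 there were 5 of the 70, against 5.16% of all genes, and DESeq2 called 0 of the 70, against 1.1% of all genes. The fitted differences were above 0 for 34 genes and below 0 for 36, with a median of -0.07, against -0.02 over all genes tested. *Cd63*, which encodes the surface partner of TIMP1, was the nearest to a call in its list of activators, inhibitors and binding partners. It was at 1032, 3669 and 6651 CPM on the CA-ERBB2 plates and at 604, 964 and 769 CPM on the Control plates, so the groups did not overlap, with a log2 difference of 2.28 ± 0.68 (edgeR adjusted p = 0.886). It was called in edgeR when no filter on low counts was applied. *Bsg*, which encodes the metalloproteinase inducer basigin, was at 827, 692 and 1553 CPM against 917, 1341 and 1046 CPM (log2 difference -0.11 ± 0.50, adjusted p = 0.989).

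Among the 17 other matrix metalloproteinases, 9 were tested and 0 were called, with a median log2 difference of 0.16. The highest were *Mmp16*, a membrane protease, between 14.6 and 57.8 CPM over the 6 plates, and *Mmp19*, between 7.48 and 78.2 CPM, with adjusted p of 0.986 and 0.918 in edgeR. *Mmp21* had the smallest p of the list but was at 0 CPM on all CA-ERBB2 plates and at most 0.265 CPM in Control (adjusted p = 0.774). The 11 cathepsins, proteases mostly of the lysosome, were all tested, 9 of them with a difference below 0 and a median of -0.57. *Ctsb* was at 360, 698 and 603 CPM on the CA-ERBB2 plates and at 574, 1025 and 1173 CPM on the Control plates (log2 difference -0.74 ± 0.50, adjusted p = 0.918), and *Ctsl* had a log2 difference of -0.97 ± 0.48 (adjusted p = 0.911). *Ctsk*, the collagen-cutting cathepsin of osteoclasts, was at 106, 85.6 and 274 CPM against 84.0, 61.4 and 38.9 CPM (1.33 ± 0.59, adjusted p = 0.911).

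Of the 11 ADAM proteases, 4 had differences above 0 and 7 below. The shedding proteases *Adam10* and *Adam17* were the highest, with log2 differences of 0.30 ± 0.58 and -0.82 ± 0.58, and *Adam28* had the smallest p, at -5.23 ± 2.30 (edgeR adjusted p = 0.973, 0.918 and 0.911). Of the 19 ADAMTS proteases, 10 had differences above 0 and 9 below. *Adamts2*, the procollagen N-proteinase, had a log2 difference of -1.16 ± 0.60, *Adamts12* of 0.34 ± 0.92 and *Adamts16* of -5.43 ± 2.35 (adjusted p = 0.911, 0.983 and 0.911). Over the 5 lists, 2 genes had every CA-ERBB2 plate above every Control plate, *Cd63* and *Ctsk*, and 6 had every CA-ERBB2 plate below, *Mmp21*, *Mmp24*, *Adam12*, *Ctsl*, *Ctsz* and *Spock2*, where the shares over all genes were 4.2% and 4.88%.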

How the data were processed

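The authors deposited raw counts for each cell, as whole numbers with no scaling. Their reads were mapped to GRCm38 with STAR 2.7.6a, and featureCounts of Subread 2.0.1 assigned them to exons with a strand setting. SMART-Seq libraries of this kind carry no molecular identifiers, so the counts are of reads. The exact binomial intervals take the cells of a plate as independent and cover counting error over cells only. The median total was 2866362 counts per cell. Counts were summed per plate, and 3 plates of each genotype were compared with edgeR 4.0.16 in R 4.3.3 (TMM factors, filterByExpr, quasi-likelihood test, Benjamini-Hochberg adjustment over all genes). A call needed a log2 difference beyond 1 in either direction and an adjusted p below 0.05. Plate CPM uses the TMM factors, and CPM of a cell uses its total. Exon lengths are unions of exons in Gencode M21. DESeq2 1.42.0 and the other alternatives are given at the end. The edgeR step was tested on simulated data. The genes and lists were chosen with earlier results of these data known. Outside the 10 genes, the rule named called genes of the lists, otherwise the 2 highest and the smallest p of each list, the 5 genes most like *Timp1* and *Mmp9*, and the synapsin genes.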

Additional observations from a re-analysis of the deposited data

How the results depend on the processing

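Over all genes, edgeR called 1 gene. It called 285 without the filter on low counts, DESeq2 called 235, and leaving out a plate in turn gave between 0 and 2 calls, with 0 without Control plate 1 or Control plate 3 and 2 without CA-ERBB2 plate 1. Of the matrix lists, 0 genes were called, and 1 (*Cd63*) without the filter. With the plate number as a replicate block, edgeR called 1 gene over all genes and 0 in the lists. The numbers were not taken as pairs, since the deviations of same-numbered plates from their genotype means correlated at 0.215, 0.0822 and 0.0773. Without TMM factors the median difference of all genes moved by -0.25. Over all alternatives the log2 difference stayed between 3.97 and 7.91 for *Timp1* and between 3.08 and 5.77 for *Mmp9*, with the lowest values from the mean over cells of log2(CPM + 1). *Timp3*, *Mmp2* and *Mmp11* took either sign. *Mmp13* ranged from 0.20 to 1.78, *Timp4* from -10.1 to -0.10 and *Mmp15* from -2.45 to -0.37. The share of CA-ERBB2 cells with *Timp1* and *Mmp9* was 29.4% at 10 CPM, 21.5% at 1000 CPM, 37.3% at 1 count, and between 20.3% and 36.4% with 1 plate left out, each within 1 SD between plates (16.7 points) of 27.1%. The difference in share between cells with and without *Timp1* fell at 1000 CPM to 1.67 points for *Timp2*, -1.53 for *Timp3* and 2.194 for *Mmp13*. For *Mmp9* it was 54.3 points at 10 CPM, and for *Mmp2* 15.9 points at 10 CPM and -21.6 points at 1000 CPM. In the thinnest cell, with 1443 counts, 1 count is already above 100 CPM. The cause of these changes was not tested.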
